A study of Mus musculus with 2 samples.

Results

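Histone genes were followed on an array that compared skin cells with a bright Lgr6 reporter with skin cells with a bright Lgr5 reporter. They were chosen by the gene names printed in the scanner tables, namely the clustered replication-dependent genes (names beginning Hist1h to Hist4h) and the variants outside the clusters (H2af, H1f and H3f). This gave 70 of 41174 probes, for 49 genes, of which 36 were clustered and 13 were variants. The Lgr6-high cells were dorsal skin cells sorted for high green fluorescent protein from Lgr6-EGFP-ires-CreERT2 knock-in mice. The Lgr5-high cells were sorted in the same way from Lgr5-EGFP-ires-CreERT2 knock-in mice. Both kinds of mouse therefore carried the same reporter and recombinase cassette, and the reporter gene alone set the gate. Each sort pooled 3 mice, and the age and the hair cycle stage are not given in the sources used here. Both reporter genes code for R-spondin receptors of 1 family and are known in mouse skin as markers of hair follicle stem cells.

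Core histones of the types H2A, H2B, H3 and H4 form the particle around which DNA winds, and the linker histone H1 binds where the DNA enters and leaves it. The replication-dependent genes are transcribed mainly in S phase, and their mRNAs usually end in a stem-loop instead of a poly(A) tail. Variant genes such as H3f3a or H2afz are mostly transcribed throughout the cell cycle, carry poly(A) tails and supply histones that are exchanged into chromatin outside replication. The amplification kit named in the labels is commonly primed on poly(A) tails. The primer is not given in the sources used here, and how far tails limited the signal of clustered genes was not tested.

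Paralogous histone genes have nearly the same coding letters, so several probes could pick up RNA of more than 1 gene. The 60-base probes below, read from the deposited scanner tables, are shown because their runs are shared within each of the core types H2A, H2B, H4 and H3. Capitals mark the run that all probes of a group share, each is printed 5′ to 3′, and positions are on mouse build mm9. An annotation of that build was not used, so exon or UTR positions are not given. In the H2A group, whose shared run has 29 bases, the probes lie at chr13:24026659-24026718, chr13:23626108-23626167 and chr6:136757181-136757240, all on the plus strand.
Hist1h2aa: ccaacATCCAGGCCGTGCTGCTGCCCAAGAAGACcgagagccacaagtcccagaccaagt
Hist1h2af: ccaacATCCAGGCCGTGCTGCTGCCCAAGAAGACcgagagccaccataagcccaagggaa
H2afj: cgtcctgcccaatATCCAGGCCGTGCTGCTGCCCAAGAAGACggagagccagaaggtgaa

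In the H4 group, again with a shared run of 29 bases, the probes lie at chr13:23673665-23673724 (plus strand), chr13:23643249-23643308 (minus strand) and chr3:96066953-96067012 (minus strand).
Hist1h4d: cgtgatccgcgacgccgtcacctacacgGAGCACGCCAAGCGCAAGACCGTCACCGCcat
Hist1h4f: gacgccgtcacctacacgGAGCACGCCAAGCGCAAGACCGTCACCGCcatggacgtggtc
Hist2h4: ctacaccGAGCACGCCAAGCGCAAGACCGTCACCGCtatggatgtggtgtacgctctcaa

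In the H3 group the shared run has 17 bases, and the probes lie at chr13:23667979-23668038 and chr3:96051157-96051216, both on the plus strand.
Hist1h3d: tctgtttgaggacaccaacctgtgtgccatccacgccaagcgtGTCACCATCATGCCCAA
Hist2h3c1: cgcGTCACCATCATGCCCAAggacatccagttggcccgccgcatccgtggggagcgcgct

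Of the 33 genes measured, 15 were represented by a probe that shares a run of at least 15 bases with a probe of another histone gene. Probes were compared with each other and not with transcripts, so a probe without such a run may still pick up RNA of other genes. The longest run between probes of different genes was 52 bases, between Hist1h2bm and Hist1h2bk. Hist1h4d and Hist1h4f shared 50 bases, and Hist1h2aa and Hist1h2af shared 44. Signals of genes with such long runs cannot be told apart. Other runs were shorter, such as 17 bases between Hist1h3d and Hist2h3c1, and how far those signals mix was not tested. Each name below stands for the probe.

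The stem-loop letters of replication-dependent mRNAs show which probes reach the mRNA's end. The whole histone stem-loop, searched on the probe strand, was present in 1 of 70 histone probes and in no other probe of the array. The first or the last part of it was present in the probes of a further 2 histone genes. Capitals mark the stem-loop letters in these stretches of the probes at chr13:23853756-23853815 (minus strand), chr13:23843392-23843451 (plus strand) and chr13:23662489-23662548 (minus strand).
Hist1h3a: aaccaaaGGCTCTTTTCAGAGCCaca
Hist1h2ab: aaacaaaGGCTCTTTTCA
Hist1h2ae: CTTTTCAGAGCCattcact

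Of these genes, Hist1h2ab passed the signal filter, whereas Hist1h3a and Hist1h2ae did not. The poly(A) signal AATAAA was present in 2 of 70 histone probes (2.86%), against 4.78% of all probes. Both belonged to genes that did not pass, Hist1h2bp and Hist2h2bb.

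RNA was labelled on 2 two-colour arrays with exchanged dyes, Lgr6-high in Cy5 and Lgr5-high in Cy3 on array 1 and the reverse on array 2. Nothing in the labels tells if each array had RNA of its own sort, so the pair was treated as 1 replicate and calls rest on size, with limma's test as an alternative. Ratios are log2 of Lgr6-high over Lgr5-high, and the SD is over the 2 arrays (n = 2). A gene was measured if a probe was well above background for at least 1 population on both arrays. It was called if its mean log2 ratio reached 1 (2-fold) with at least 0.5 in that direction on each array. On arrays 1 and 2, 31.6% and 33.3% of the probe spots stood clearly over background in Cy3, but 15.3% and 16.2% in Cy5, so dim genes were measured with little precision.

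The 2 arrays differed for bright genes. Among the 98 other genes with a mean log2 intensity of 13 or more, the median log2 ratio was 0.62 on array 1 and -1.27 on array 2. In the scanner software's own ratios these medians were -0.01 and -0.10. The scanner's ratio is therefore given beside the bright histone genes. RNA from fewer cells of a type and less RNA per cell cannot be told apart in such sorted populations.

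Log2 ratios of core histone genes other than H3 lay below 0, that is towards the Lgr5-high cells, whereas those of H3 genes lay above 0 in most measures. Of the 33 measured histone genes, 16 were called lower in Lgr6-high cells and 0 higher. Over all 6195 genes tested, 4.79% were called lower and 7.22% higher. The median log2 ratio was -1.01 over the histone genes and -0.05 over all genes tested.

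How many histone genes were called depended on the normalisation. By the scanner's own ratios, 21 histone genes were lower in Lgr6-high cells and 3 higher, against 15.5% of all genes in each direction, and 15 genes were lower in both settings. Without background subtraction 11 were lower (3.37% of all genes), as many as with normexp fitted on all spots (2.52%), and with median centring alone 0 were lower or higher (0.92% and 2.16% of all genes). The median log2 ratios with median centring were still -0.96 for clustered genes and -1.04 for core histone genes, against -1.01 and -1.06 with normexp and loess. On array 1 alone, at 2-fold, 13 were lower and 4 higher (4.99% and 7.09% of all genes), and on array 2 alone 19 were lower and 1 higher (7.94% and 9.67%). The share of histone genes called lower was above that of all genes in each of these settings other than median centring. By limma, which takes the arrays as replicates, 17 were lower and 1 higher (4.92% and 7.38% of all genes).

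**Figure D1:**
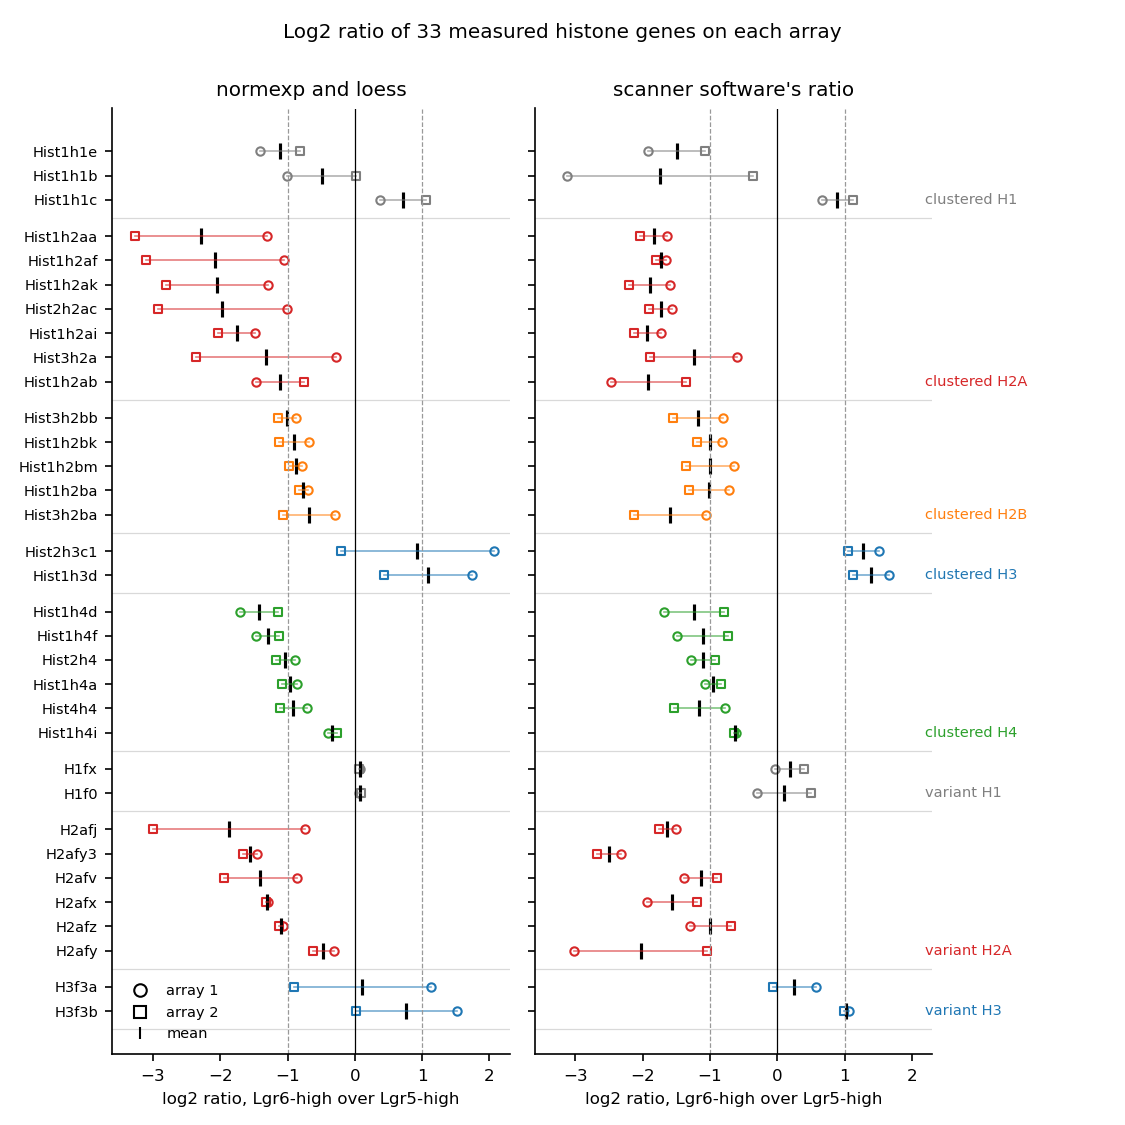
Log2 ratio of Lgr6-high over Lgr5-high (x axis) for each of the 33 measured histone genes (rows), grouped by class and type, with array 1 as circles, array 2 as squares and the mean as a bar, from normexp and loess (left) and from the scanner software (right). Dashed lines mark a log2 ratio of 1 either way. All H2A, H2B and H4 genes lie left of 0 on both arrays in both panels, and the H3 genes Hist1h3d, Hist2h3c1 and H3f3b lie right of 0 on both arrays in the right panel.

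Of the clustered genes 11 of 23 measured were called lower, with a median log2 ratio of -1.01, and of the variants 5 of 10, with a median of -0.78. Over all genes tested 4.79% were called lower. The scanner's medians were -1.18 for clustered genes and -1.07 for variants. By the scanner's ratios 16 of 23 clustered genes were lower and 2 higher, and of 10 variants 5 were lower and 1 higher. That setting called 15.5% of all genes in each direction. Without probes that share a run, 2 of 10 clustered genes and 4 of 9 variants were lower, against 4.64% of all genes. The order of the shares therefore changed with the setting, and the difference between the classes was not tested.

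Medians differed more between the histone types than between the classes. Linker genes had a median log2 ratio of 0.07 over 5 measured genes, of which 1 was called lower. Core genes had -1.06 over 28 measured genes, of which 15 were called lower. The share called lower among all genes tested was 4.79%. Without H3, all 24 measured core genes had ratios below 0 on both arrays, against 38.7% of all genes tested.

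The clustered H2A genes lay furthest from 0, with a median log2 ratio of -1.97. Of 7 measured genes 6 were called lower, against 4.79% of all genes tested. These genes encode the canonical H2A, except that Hist1h2aa is known in mouse as a testis-specific form. Hist1h2aa gave a Cy3 signal of 25543 in Lgr6-high cells, against 68137 in Lgr5-high cells, and a Cy5 signal of 3320 in Lgr6-high cells, against 23003 in Lgr5-high cells. The Lgr5-high signal was thus the higher one in each dye. Its log2 ratio was -1.30 on array 1 and -3.26 on array 2, with a mean of -2.28 ± 1.39, and the scanner gave -1.64 and -2.03. Its signal cannot be assigned to this gene alone, because of the 44 bases shared with Hist1h2af.

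Hist1h2af gave a Cy3 signal of 39684 in Lgr6-high cells, against 106182 in Lgr5-high cells, and a Cy5 signal of 5616 in Lgr6-high cells, against 29952 in Lgr5-high cells. Its mean log2 ratio was -2.08 ± 1.45, and the scanner gave -1.66 and -1.81. Hist2h2ac, whose probe shares no run with another histone gene's, gave a Cy3 signal of 22451 in Lgr6-high cells, against 53037 in Lgr5-high cells, and a Cy5 signal of 3240 in Lgr6-high cells, against 16749 in Lgr5-high cells. In all these cases the array 2 ratio was the further from 0, while the scanner's 2 ratios lay within 0.5 of each other. The mean log2 ratio of Hist2h2ac was -1.97 ± 1.35 (scanner -1.57 and -1.90). A second probe under that name, placed elsewhere at chr3:96049751-96049810 on the plus strand, gave -2.17. It lies near a Hist2h2aa1 probe at chr3:96049502-96049561 on the same strand, so which gene it measures cannot be told.

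Dimmer H2A genes showed the same direction. Hist1h2ak had log2 ratios of -1.30 and -2.81 on arrays 1 and 2, and Hist1h2ai -1.48 and -2.04. Hist1h2ab, whose probe ends within the stem-loop, had -1.47 and -0.76. Hist3h2a had -0.28 and -2.35 and was not called. Its 2 passing probes disagreed, since the dimmer one had a mean log2 ratio of 0.01.

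The H2B genes had a narrow range of ratios, -1.01 to -0.68 over 5 measured genes. Hist3h2bb, which RefSeq now lists as a pseudogene, was called at -1.01 ± 0.19. Hist1h2bk had -0.91 ± 0.31, with -0.75 for a second probe that shares no run with another histone gene's. Hist1h2bm had -0.88 ± 0.14, and Hist1h2ba, a testis-specific H2B in mouse, -0.77 ± 0.09. Hist3h2ba had -0.68 ± 0.55. All were negative on both arrays, and 4 of the 5 missed the 2-fold minimum of the mean. By the scanner's ratios 4 of the 5 were called lower, against 15.5% of all genes, with a median of -1.02.

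The H4 genes, which in mouse encode the same protein from many copies, had mean log2 ratios from -1.43 to -0.33. Of 6 measured genes 3 were called lower, against 4.79% of all genes tested. Hist1h4d gave a Cy3 signal of 5476 in Lgr6-high cells, against 11399 in Lgr5-high cells, and a Cy5 signal of 644 in Lgr6-high cells, against 1762 in Lgr5-high cells. Its mean log2 ratio was -1.43 ± 0.39, that of Hist1h4f -1.29 ± 0.24 and that of Hist2h4 -1.03 ± 0.20, all with the shared run printed above. Hist1h4a (-0.97 ± 0.16), Hist4h4 (-0.91 ± 0.29) and Hist1h4i (-0.33 ± 0.09) were below 0 on both arrays and not called.

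The clustered H3 genes lay on the other side. Hist1h3d gave a Cy3 signal of 25033 in Lgr6-high cells, against 6874 in Lgr5-high cells, and a Cy5 signal of 3322 in Lgr6-high cells, against 2262 in Lgr5-high cells. Hist2h3c1 gave a Cy3 signal of 34485 in Lgr6-high cells, against 9892 in Lgr5-high cells, and a Cy5 signal of 5529 in Lgr6-high cells, against 4342 in Lgr5-high cells. Both genes thus had the higher signal in Lgr6-high cells in each dye. Hist1h3d had log2 ratios of 1.74 and 0.43 on arrays 1 and 2 and just missed the minimum on array 2. Hist2h3c1 had 2.07 and -0.21, so that its direction differed between the arrays after loess. The scanner gave 1.66 and 1.13 for Hist1h3d and 1.50 and 1.05 for Hist2h3c1, and by those ratios both were called higher. With normexp fitted on all spots their mean log2 ratios were 0.17 and -0.23, so the direction of Hist2h3c1 flipped there.

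Genes of like brightness share the trend between the arrays, and the bright histone genes were set against them. Relative to the median of genes within 0.5 log2 units of its mean intensity, Hist1h3d lay at 1.30 (71 genes) and Hist2h3c1 at 1.31 (43 genes). On the same measure, Hist1h2aa lay at -1.94 (33 genes), Hist1h2af at -1.80 (32 genes) and Hist2h2ac at -1.61 (39 genes). Bright H2A and H3 genes stood on opposite sides, but the measure used the mean over both arrays and did not examine each array. The medians of other genes were -0.21 at intensities of 12 to 13 and -0.35 at 13 or more, so signs could hardly change.

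**Figure D2:**
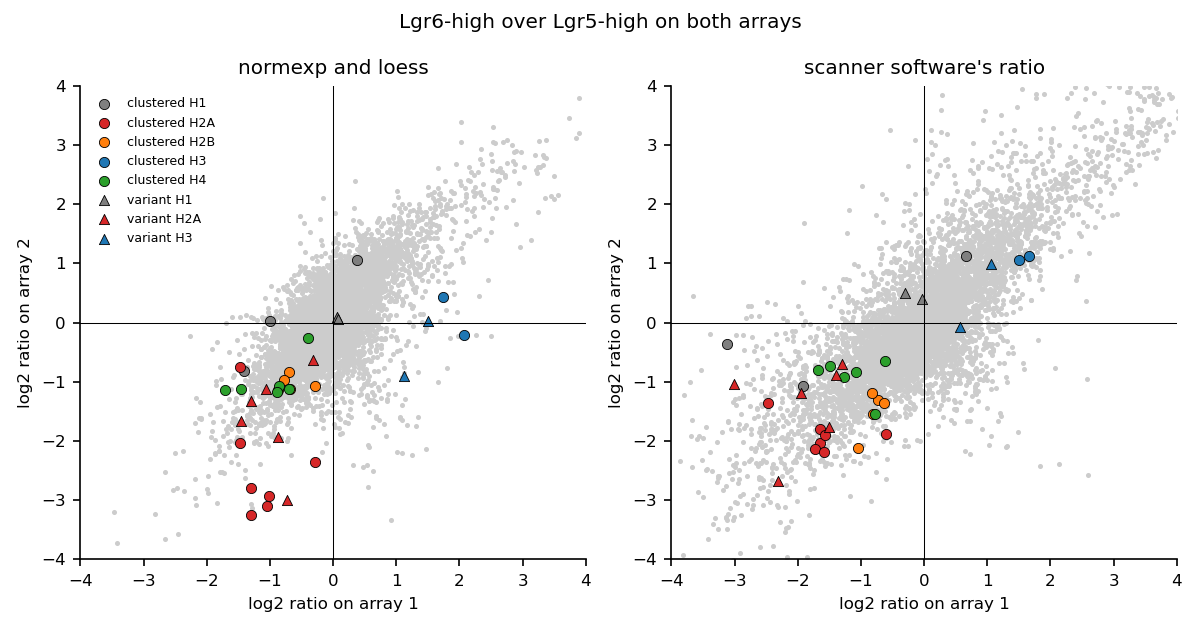
Log2 ratio on array 1 (x axis) against array 2 (y axis), with all genes tested in grey, clustered histone genes as circles and variants as triangles, from normexp and loess (left) and from the scanner software (right). Points beyond a log2 ratio of 4 are not drawn. The bright H2A and H3 genes lie below the diagonal on the left and move towards it on the right, where H2A genes lie below 0 and 3 of 4 H3 genes above 0 on both arrays.

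The measured clustered H3 genes lie near genes with mean log2 ratios of the opposite sign. The probe of Hist1h3d (1.09 ± 0.92) is separated from that of Hist1h4d (-1.43 ± 0.39) by 5.63 kb on chromosome 13. In the Hist2 cluster on chromosome 3, the probe of Hist2h3c1 (0.93 ± 1.61) lies 15.7 kb from that of Hist2h4 (-1.03 ± 0.20) and 26.6 kb from that of Hist2h2ac (-1.97 ± 1.35). Nearer to the Hist2h3c1 probe lie the second Hist2h2ac probe (-2.17) and a Hist2h2aa1 probe that did not pass the signal filter (-0.15). By cluster the medians were alike, at -1.04 over 16 genes of Hist1, -1.03 over 3 of Hist2 and -1.01 over 3 of Hist3, while Hist4h4 was the 1 gene of its locus. By the mean ratio these H3 genes and the neighbours named here thus differed in sign, although the clusters had like medians. Hist2h3c1 had the sign of its neighbours on array 2 (-0.21) and with normexp fitted on all spots (-0.23). All 24 measured core genes outside H3 had ratios below 0, so any such neighbour of an H3 gene above 0 differs in sign. A Hist1h2ae probe that did not pass (-0.14) also lies near Hist1h3d. Probes of 25 Hist1 genes lay within 2.21 Mb of chromosome 13, and that of Hist1h2al, which RefSeq names as a pseudogene, lay outside.

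The variants of H2A followed the clustered H2A genes, with a median log2 ratio of -1.36. Of 6 measured genes 5 were called lower, against 4.79% of all genes tested. H2afz (now H2az1) and H2afv (now H2az2) encode forms of H2A.Z, which is exchanged into nucleosomes at promoters. H2afz gave a Cy3 signal of 4607 in Lgr6-high cells, against 5682 in Lgr5-high cells, and a Cy5 signal of 553 in Lgr6-high cells, against 1524 in Lgr5-high cells. Its log2 ratios were -1.06 and -1.12 on arrays 1 and 2, and the scanner's -1.30 and -0.69 averaged just under the 2-fold minimum. H2afv gave a Cy3 signal of 11292 in Lgr6-high cells, against 21161 in Lgr5-high cells, and a Cy5 signal of 1689 in Lgr6-high cells, against 5142 in Lgr5-high cells. Both H2A.Z genes were lower in Lgr6-high cells, H2afv at -1.40 ± 0.76.

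H2afx encodes H2A.X, the form that is phosphorylated around DNA breaks. It gave a Cy3 signal of 903 in Lgr6-high cells, against 1630 in Lgr5-high cells, and a Cy5 signal of 242 in Lgr6-high cells, against 528 in Lgr5-high cells. Its log2 ratio was -1.31 ± 0.02, the smallest SD among the histone genes called. H2afy3 (now Macroh2a3) was lower as well, at -1.56 ± 0.15. Its probe is annotated to a non-coding RNA of RefSeq, and it is counted among the H2A variants by its name. H2afy (now Macroh2a1), a macroH2A known from silent chromatin, had -0.47 ± 0.22 and stood over background in the Lgr6-high channel of array 2 only. The scanner gave it -3.02 and -1.04, a mean of -2.03, by which it was called lower. A second passing H2afy probe, dimmer than the first, had a mean log2 ratio of -0.13 and a scanner mean of -0.68.

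H2afj encodes H2A.J, which is close to canonical H2A. It gave a Cy3 signal of 31237 in Lgr6-high cells, against 75822 in Lgr5-high cells, and a Cy5 signal of 5179 in Lgr6-high cells, against 23007 in Lgr5-high cells. Its log2 ratio was -1.87 ± 1.60 (scanner -1.51 and -1.76). This probe holds the run shared with Hist1h2aa and Hist1h2af, and the other H2afj probe was near background, so a signal of H2afj itself cannot be told apart from theirs. The probe lies 4.40 kb from that of Hist4h4 on chromosome 6.

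The H3 variants H3f3a and H3f3b encode the same protein, H3.3, which is laid down outside replication. H3f3b gave a Cy3 signal of 44433 in Lgr6-high cells, against 14761 in Lgr5-high cells, and a Cy5 signal of 5429 in Lgr6-high cells, against 4624 in Lgr5-high cells. Its mean log2 ratio was 0.77 ± 1.05, with 1.18 for a second probe, and the scanner's 1.06 and 0.98 passed the rule. H3f3a gave a Cy3 signal of 11725 in Lgr6-high cells, against 6769 in Lgr5-high cells, but a Cy5 signal of 2259 in Lgr6-high cells, against 2803 in Lgr5-high cells. Its ratio, 0.11 ± 1.44, was not called, and 3 passing probes gave 0.11 to 0.31. With normexp fitted on all spots H3f3a lay at -0.75 and H3f3b at -0.45, and without background subtraction H3f3a lay at -0.24, so these directions flipped.

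Linker histones showed no common direction. Hist1h1e was called lower at -1.12 ± 0.42. Hist1h1c, a main somatic H1 of many mouse tissues, had 0.38 and 1.06 on arrays 1 and 2 and a mean of 0.72 ± 0.48, with scanner ratios of 0.66 and 1.13. Hist1h1b had -1.01 and 0.02, and its signal in Lgr6-high cells was above background on array 2 alone. H1f0, a variant known from cells that have stopped dividing, had 0.08 ± 0.03. H1fx had 0.07 ± 0.01 by its brighter probe and -0.71 by its other passing probe, which disagree.

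**Figure D3:**
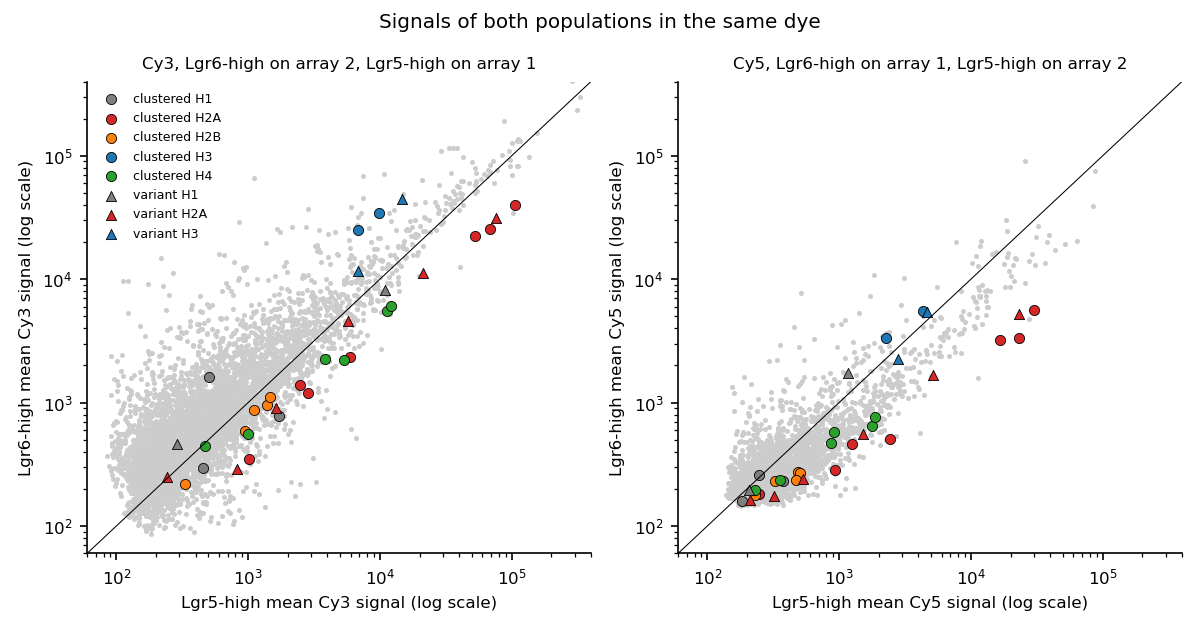
Mean signal of the Lgr6-high RNA (y axis, log scale) against that of the Lgr5-high RNA (x axis, log scale) in Cy3 (left) and Cy5 (right), so that each panel keeps the dye and sets one array against the other, with all genes tested in grey and the line marking equal signals. The clustered H2A, H2B and H4 genes lie below the line in both panels, and Hist1h3d, Hist2h3c1 and H3f3b above it.

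Signals of the same dye gave the same split by type without any normalisation or background subtraction. Of 33 histone genes, 25 had the lower signal in Lgr6-high cells in both dyes, against 22.8% of all genes tested. The clustered H2A (7 of 7), H2B (5 of 5) and H4 genes (6 of 6) all did, as did 5 of 6 H2A variants. Hist1h3d, Hist2h3c1, H3f3b and Hist1h1c had the higher signal in Lgr6-high cells in both dyes, against 28.9% of all genes tested. The arrays themselves differed in level, with a median signal over all genes, as Lgr6-high over Lgr5-high, of 1.36 in Cy3 and 0.913 in Cy5.

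Of the 49 genes, 16 were not measured. These were 13 clustered genes, of which 6 were well above background in Cy3 of both arrays only and 7 in no channel, and 3 variants, all in no channel. The variants were H1foo, an oocyte linker histone, H1fnt, a testis one, and H2afy2, a macroH2A. The log2 ratios of the 16 lay between -0.29 and 0.31, which says little at background level.

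Among the 18 measured genes whose probe shares no run with another histone gene's, the median log2 ratio was -0.73 with 6 called lower, and among the 15 that share one it was -1.12 with 10 called. With such probes left out altogether, 4.64% of all genes were called lower. The 6 histone genes were Hist1h1e, Hist2h2ac, H2afv, H2afx, H2afy3 and H2afz. No H3, H2B or H4 gene was called without a shared run. Both measured clustered H3 genes, Hist1h3d and Hist2h3c1, had shared-run probes, so their direction has no value without them.

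Promoters were read from RefSeq (GRCm38.p6) for 41 of the 49 genes, from 250 bases before to 50 after the start. A TATA box (TATAAA) was found in 64.5% of 31 windows of clustered genes, 9.09% of 11 windows of variants and 13.6% of all windows. CCAAT was found in 90.3%, 63.6% and 37.4% in that order, and the octamer ATTTGCAT in 35.5%, 9.09% and 1.74%. All motifs were searched on both strands, and no histone window held overlapping motifs of different kinds. The octamer was in 6 of 10 windows of clustered H2A genes and 5 of 8 of H2B genes, and in none of the clustered H1, H3 or H4 windows. The 250 bases before the start are shown for Hist2h2ac and Hist1h3d, clustered genes with ratios of opposite sign, and for H3f3b, the variant with all 3 motifs. They lie at chr3:96220881-96221130 (minus strand), chr13:23575513-23575762 (plus strand) and chr11:116024505-116024754 (minus strand), and capitals mark the motifs on either strand.
Hist2h2ac: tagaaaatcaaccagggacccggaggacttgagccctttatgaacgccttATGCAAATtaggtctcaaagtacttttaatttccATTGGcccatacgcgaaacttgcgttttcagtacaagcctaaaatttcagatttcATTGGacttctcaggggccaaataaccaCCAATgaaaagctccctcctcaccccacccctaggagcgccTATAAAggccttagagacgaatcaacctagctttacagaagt
Hist1h3d: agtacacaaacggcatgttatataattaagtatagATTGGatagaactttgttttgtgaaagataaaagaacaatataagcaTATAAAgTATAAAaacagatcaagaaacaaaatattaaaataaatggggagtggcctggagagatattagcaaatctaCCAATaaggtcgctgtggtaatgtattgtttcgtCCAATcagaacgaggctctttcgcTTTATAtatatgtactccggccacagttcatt
H3f3b: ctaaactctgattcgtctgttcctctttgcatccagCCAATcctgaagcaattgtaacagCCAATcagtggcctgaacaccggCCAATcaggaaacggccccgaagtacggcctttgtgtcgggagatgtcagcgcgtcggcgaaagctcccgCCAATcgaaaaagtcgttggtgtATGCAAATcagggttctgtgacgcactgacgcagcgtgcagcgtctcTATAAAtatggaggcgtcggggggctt

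The H3f3b and Hist2h2ac windows hold the same 3 motifs, although their ratios had opposite signs (0.77 ± 1.05 and -1.97 ± 1.35). The motifs are matches of letters, and binding was not measured.

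Genes of DNA replication had ratios below 0 as well, like the core histones other than H3. Of 26 measured genes of a list for S phase, 14 were called lower and 0 higher, against 4.79% and 7.22% of all genes tested. The median log2 ratio was -1.07, and all 26 were below 0 on both arrays, against 38.7% of all genes tested. Examples were Tk1, a thymidine kinase (-1.98 ± 0.36), Uhrf1, which carries DNA methylation through replication (-1.61 ± 0.14), and Mcm5, a helicase subunit (-1.27 ± 0.02). Pcna, the sliding clamp, had -0.60 ± 0.21 and was not called. Rfc4, Mcm2, Ung, Gins1, Rrm2 and Fen1 passed the signal filter through Lgr5-high cells only. For these genes the filter itself favoured ratios below 0.

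Of 28 measured histone chaperones and exchange factors, 3 were called lower and 0 higher, against 4.79% and 7.22% of all genes tested. Their median was -0.51. The 3 were Dnajc9 (-1.21 ± 0.05), a chaperone of H3 and H4, Chaf1b (-1.18 ± 0.02), a subunit of the replication-linked assembly factor CAF-1, and Hjurp (-1.03 ± 0.03), which loads the centromeric H3. Of 10 measured genes for the transcription and processing of histone mRNAs, 0 were called, against the same shares of all genes, with a median of -0.24. Slbp, which binds the stem-loop, had -0.04 ± 0.40.

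**Figure D4:**
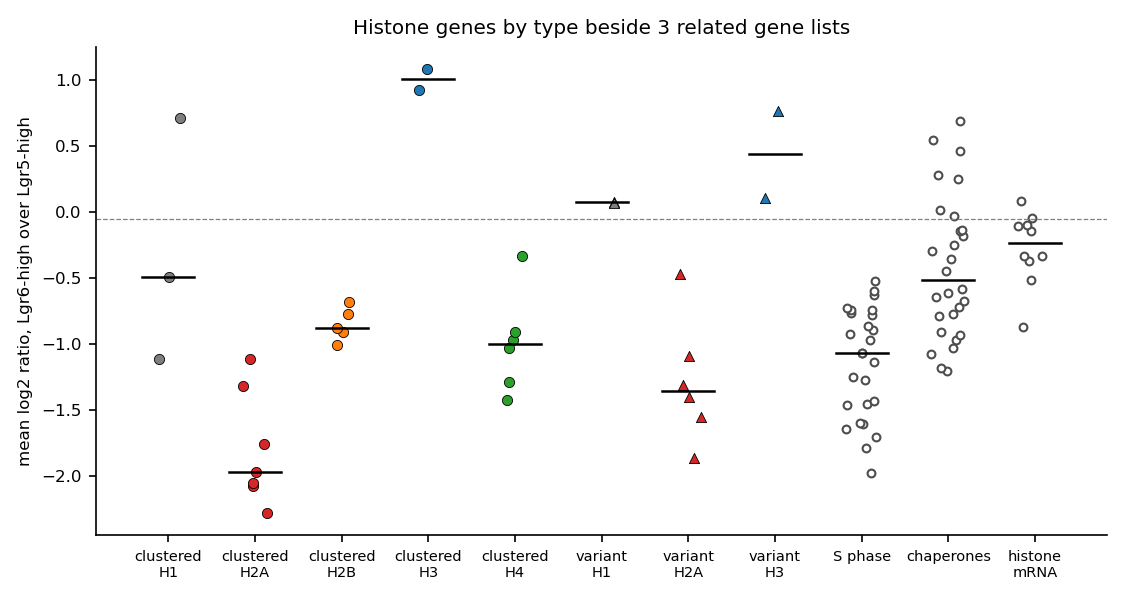
Mean log2 ratio of Lgr6-high over Lgr5-high (y axis) for each measured gene, by histone class and type and in lists for S phase, for histone chaperones and for histone mRNA transcription and processing (x axis). Points are genes (spread sideways only for visibility), bars are medians and the dashed line is the median of all genes tested at -0.05. H2A, H2B, H4 and S phase genes lie wholly below the line, and H3 genes above it.

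Markers of other cell types moved with the same contrast, and their part in the histone ratios was not tested. Over all genes tested, 4.79% were called lower and 7.22% higher. Summed over 10 keratinocyte markers, Cy3 signal was 495498 in Lgr6-high cells, against 169008 in Lgr5-high cells, and Cy5 signal was 70099 in Lgr6-high cells, against 46896 in Lgr5-high cells, with 6 of 10 called higher. Over 8 markers of dermal fibroblasts, Cy3 signal was 934 in Lgr6-high cells, against 5073 in Lgr5-high cells, and Cy5 signal was 1251 in Lgr6-high cells, against 2060 in Lgr5-high cells, with 4 of 5 measured called lower. Over 8 endothelial and mural markers the Cy3 signal was 1486 in Lgr6-high cells, against 5865 in Lgr5-high cells, and the Cy5 signal was 1357 in Lgr6-high cells, against 2620 in Lgr5-high cells, with 4 of 4 measured lower. Background was not subtracted from these signals, and the median Cy5 signal of a probe spot was 156 on array 1 and 155 on array 2. The Cy5 sums of fibroblast and vascular markers therefore hold much background. By the sums, keratinocyte markers were more abundant in the Lgr6-high RNA, and fibroblast and vascular markers in the Lgr5-high RNA. The sums were not adjusted for the difference in level between the arrays. Of the keratinocyte markers, 7 of 10 had log2 ratios above 0 on both arrays. Krt5 (1.85 and -0.27), Krt14 (2.27 and -0.21) and Krt15 (1.98 and -0.23) changed sign between arrays 1 and 2. Melanocyte markers (1 of 1 measured) and red cell markers (2 of 2) were called lower, and Schwann cell markers (2 of 2) higher. All 5 measured fibroblast markers, Ramp2, Egfl7 and the melanocyte marker Dct passed the signal filter through Lgr5-high cells only. Mbp, a Schwann cell marker, passed through Lgr6-high cells only. For these genes the filter itself favoured the direction of the call. None of 6 leukocyte markers was measured, and 4 of them were above background in no channel. In no channel above background were also 0 keratinocyte, 3 fibroblast, 4 endothelial and mural, 3 melanocyte, 1 red cell and 3 Schwann cell markers.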

How the data were processed

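RNA of both populations was hybridised to 2 two-colour Agilent arrays of exchanged dyes. The deposited scanner tables hold spot and local background intensity on a linear scale, extracted with Feature Extraction 10.5.1.1 per the file headers (9.5.3 per the submitters' processing notes), and the software's log10 ratio of Cy5 over Cy3, after its own background subtraction and dye normalisation. The authors' value table holds the same log10 ratio, with the sign turned on array 2, so that Lgr6-high is on top throughout. Its columns have a median of 0.

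Intensities were background-corrected with normexp (offset 50, fitted on spots without an outlier mark) and loess-normalised within each array with limma 3.58.1 in R 4.3.3, control spots at weight 0. Outlier-marked spots were left out, and no probe spot was saturated. The brightest passing probe represented a gene, leaving 6195 genes. All members with a passing probe are named. Other genes are named where called or where they mark their list. The members, lists and rules were chosen with earlier results of these data known. Symbols were matched to RefSeq by accession for 56 of 70 histone probes and by symbol or synonym for 14. The calling rule was tested on simulated data.

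Alternatives were the scanner's ratios, the value table, other background and normalisation settings, other filters and probe rules, each array alone, and limma across all genes.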

Additional observations from a re-analysis of the deposited data

How the results depend on the processing

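The median log2 ratios of clustered genes, variants and core genes were below 0 under every alternative for which they were computed. Of clustered genes, 11 were called in the report's setting, 18 by the scanner's ratios and by the authors' value table (16 lower and 2 higher in each), 7 without background subtraction and 2 of 10 measured without probes that share a run. Of variants, 5 were called, and 3 with normexp fitted on all spots. Median centring without loess called 0 clustered genes and 0 variants, and 57 lower and 134 higher among all genes. The median of clustered genes, -1.01, was -0.80 with normexp on all spots, -0.59 without a filter on dim probes and -0.76 without shared-run probes. That of the variants, -0.78, was -0.084 without the filter. That of core genes, -1.06, was -0.84 without shared-run probes. The linker median, 0.07, was 0.10 by the scanner and the value table, -0.12 without background subtraction, -0.48 with normexp on all spots, 0.051 with median centring, -0.053 without the filter and -0.32 with the mean over passing probes. Leaving out 1 array gave 12 to 15 clustered genes and, on either array, 5 variants called, and medians of -1.12 to -0.87 (clustered), -1.02 to -0.52 (variant), 0.058 to 0.066 (linker) and -1.13 to -0.86 (core). On array 1 alone H2afj, H2afv, Hist2h4 and Hist3h2bb were no longer called and all 4 H3 genes were called higher. On array 2 alone Hist1h1e and Hist1h2ab were no longer called, and no H3 gene was. In limma across all genes (Benjamini-Hochberg adjusted p under 0.05 and 2-fold), 12 clustered genes and 5 variants were lower and Hist1h3d was higher (adjusted p = 0.00793). All 16 genes called by size were among its 18. Its p-values rest on the spread between 2 hybridisations, pooled in large part over all genes tested, and carry none between animals. A low value therefore does not show that a gene's own 2 ratios were close. Causes were not tested where none is given. No paired analysis was possible because each log ratio already pairs the populations within an array and no further replicate numbers are shared.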

Other observations

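One probe outside the name rule, annotated to RP23-480B19.10, shares at least 20 bases with the Hist1h2aa and Hist1h2af probes. Its log2 ratio of Lgr6-high over Lgr5-high was -1.29 on array 1 and -3.14 on array 2, with a mean of -2.21 ± 1.31 (SD, n = 2 arrays) and a scanner mean of -1.87. Cenpa, the centromeric H3 that Hjurp loads, did not pass the signal filter by either probe, with mean log2 ratios of -0.49 and 0.07. The H2al genes, H2A forms known from mouse testis, did not pass the filter either.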
